A study of Ovis aries with 4 samples.

Results

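The data described here are the levels of 6 receptor genes of T cells, CTLA4, CD28, CD40LG, IL2RA, SLAMF1 and CD4, in mammary gland tissue of lactating sheep. They were found by symbol among the 20150 genes of the deposited count files, of which 774 carried a symbol. Their identifiers were ENSOARG00000018321 for CTLA4, ENSOARG00000018277 for CD28, ENSOARG00000011076 for CD40LG, ENSOARG00000012860 for IL2RA, ENSOARG00000008893 for SLAMF1 and ENSOARG00000006301 for CD4. Tissue of 4 ewes had been dissociated, and each ewe gave 1 droplet-based library of single-cell transcripts; no sort or treatment was named. The groups were late lactation (LL, replicates 1 and 2) and LH (replicates 1 and 2). The series names peak lactation as its other stage, so LH was taken as peak lactation by elimination. No breed, age or day of lactation was given in the sources used here. Cells with at least 1 unique molecular identifier (UMI, a tag that marks 1 captured transcript) of CD3E or CD247, which encode CD3 chains of the T cell receptor complex, were taken as T-gated. This gate held 5838 of 35573 cells.

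A T cell needs a second signal beside its antigen receptor, and CD28 gives it when it meets CD80 or CD86 on an antigen-presenting cell. CTLA4 binds the same ligands and restrains the response; it is made by activated T cells and, at a steady level, by regulatory T cells, whose defining transcription factor is FOXP3. CD40LG is the helper signal to B cells and macrophages, IL2RA is the high-affinity chain of the interleukin-2 receptor, SLAMF1 is a self-binding costimulatory receptor, and CD4 is the coreceptor of helper T cells.

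The libraries held 12733 and 11178 barcodes in LL replicates 1 and 2, and 5955 and 9380 barcodes in LH replicates 1 and 2. Total UMIs were 60303230 and 65339993 in LL, and 28015149 and 56178927 in LH. LH replicate 1 stood apart, since T-gated cells were 48.6% of its cells (2700 cells), against 10.2% to 10.9% in the other 3 libraries (884 to 1233 cells). Median UMIs per T-gated cell were 2802 and 2489 in LL, and 3384.5 and 2921 in LH. Between 15 and 39 barcodes were shared by any pair of libraries. Of the other T cell markers with a symbol, LCK, a kinase of antigen receptor signalling, had a UMI in 6.07% to 10.7% of T-gated cells, and CD3D, another CD3 chain, in 2.45% to 4.26%. Both lay higher in T-gated than in other cells (SD, n = 4 libraries each). LCK averaged 20.9 ± 7.93 CPM in T-gated and 2.95 ± 3.15 CPM in other cells. CD3D averaged 8.75 ± 3.36 CPM in T-gated and 0.991 ± 1.13 CPM in other cells. The CD3D values are a description, not a test. The filter on low counts kept CD3D through the T-gated sums, where it was high. CPM counts UMIs relative to the total of the cells summed in a library, which the fits scaled by TMM. CD247 is also made by natural killer cells, so the gate can hold these. T-gated cells that also passed the marker gate of another cell type were 9.16% and 9.60% in LL, and 3.41% and 16.5% in LH.

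CD28 was detected in a larger share of T-gated cells in LL replicate 1 than in any other library, and CTLA4 in a small share in every library. CD28 had at least 1 UMI in 33.8% and 23.7% of T-gated cells in LL replicates 1 and 2, against 24.3% and 12.7% in LH replicates 1 and 2. The stages overlapped, since LH replicate 1 lay above LL replicate 2. CTLA4 was detected in 1.70% and 2.15% in LL (21 and 22 cells), against 3.22% and 2.94% in LH (87 and 26 cells). Both LL libraries lay below both LH libraries. The exact 95% interval was 1.06% to 2.59% in LL replicate 1 and 2.59% to 3.96% in LH replicate 1, and intervals cover counting error only.

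Among the receptors of activation and help, CD40LG was detected in 9.49% and 10.1% of T-gated cells in LL, against 14.6% and 6.22% in LH. CD4 was detected in 9.81% and 10.8% in LL, against 14.6% and 7.47% in LH. In both cases the LH libraries lay on either side of the LL libraries. IL2RA was detected in 4.95% and 2.35% in LL, against 5.26% and 4.75% in LH, and LL replicate 2 was the low library. SLAMF1 was detected in 20.4% and 19.2% in LL, against 18.1% and 9.95% in LH. The LL shares were the 2 highest, and LH replicate 2 was far below the other 3.

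**Figure D1:**
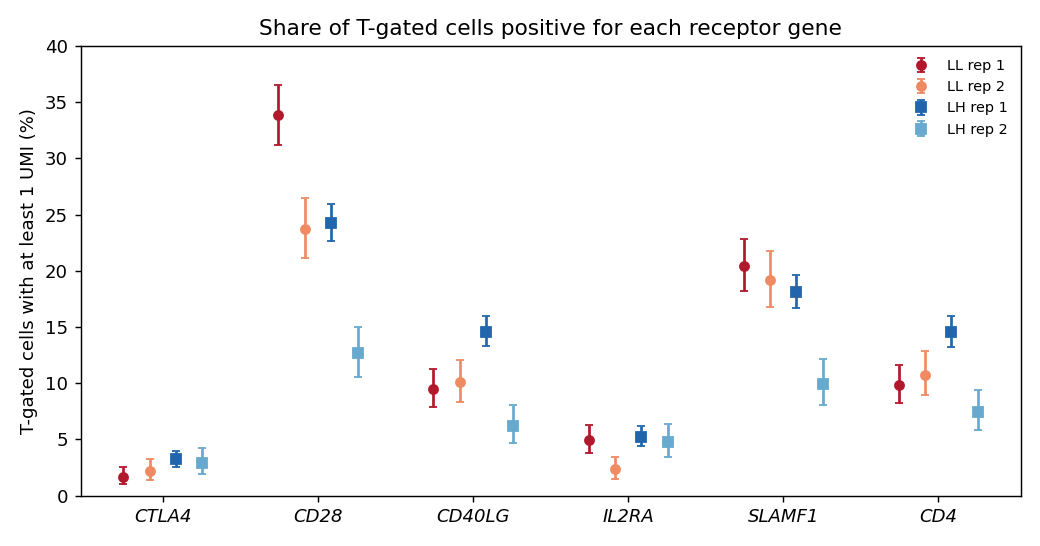
Share of T-gated cells with at least 1 UMI of each receptor gene, in percent on the vertical axis, by library (red circles LL, blue squares LH; bars are exact 95% intervals). CTLA4 shares in LL, at 1.70% and 2.15%, lie below the 3.22% and 2.94% of LH, and LH replicate 2 is the lowest library for CD28, CD40LG, SLAMF1 and CD4.

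The mean share of CTLA4-positive cells was 1.93% ± 0.32 in LL and 3.08% ± 0.20 in LH (SD, n = 2 each), a difference of -1.15 percentage points (two-sided exact permutation test, p = 0.33). The mean share of SLAMF1-positive cells was 19.8% ± 0.88 in LL and 14.1% ± 5.79 in LH, a difference of 5.77 percentage points (exact permutation p = 0.33). With 2 ewes per stage, 0.33 is the smallest p this test can give, so no share could pass a threshold of 0.05. Without LH replicate 2 the SLAMF1 difference was 1.67 percentage points. In the 111 to 523 cells per library that carried both CD3E and CD247 the CTLA4 difference turned to 0.917 percentage points. When each cell was thinned to 1000 UMIs, which left out 51 and 54 cells of LL and 38 and 33 cells of LH, CTLA4 was detected in 1.02% and 1.65% in LL, against 1.92% and 2.00% in LH. Thinned SLAMF1 shares were 9.98% and 10.3% in LL, against 7.36% and 4.23% in LH. Thinned CD28 shares were 17.7% and 15.0% in LL, against 13.4% and 7.99% in LH. The thinned shares of the stages did not overlap for CTLA4, SLAMF1 and CD28, and overlapped for CD40LG, IL2RA and CD4. How often the stages do not overlap over all genes was not counted, and the smallest p of 0.33 holds here too.

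Free RNA can place UMIs in cells that do not make a transcript. Luminal epithelial cells, gated by EPCAM or CLDN4 with PAEP, are not known to make these receptors. CTLA4 was detected in 1.70% to 3.22% of T-gated cells of the 4 libraries, against 0.0601% to 0.742% of luminal cells. Luminal cells had median UMIs of 9195.5 to 15977. The profile of free RNA was not estimated, so its part in the T-gated shares was not tested. The share of T-gated cells exceeded the share of luminal cells for each of the 6 genes in each library. The nearest approach in points was CTLA4 in LL replicate 1, with 1.70% of T-gated and 0.742% of luminal cells.

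Summed over T-gated cells, no receptor gene passed the test between the stages. In the fit across all genes, 0 of 11370 genes passed (edgeR quasi-likelihood test, Benjamini-Hochberg adjusted p under 0.05; 0% called), and 308 had p under 0.05 before adjustment; DESeq2 called 22. All 6 receptor genes were among the genes tested. CTLA4 had 15.4 and 14.2 CPM in LL, against 45.2 and 23.2 CPM in LH. Both LL values lay below both LH values, with a log2 change of -1.21 (SE 0.41, adjusted p = 1.00 by edgeR). With 2 ewes per stage such an order cannot go below an exact permutation p of 0.33, and its share over all genes was not counted. Without LH replicate 1 the log2 change was -0.64.

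The other receptor genes had overlapping stages. CD28 had 190.0 and 128 CPM in LL, against 188 and 55.4 CPM in LH (log2 change 0.38, SE 0.62). SLAMF1 had 85.5 and 69.8 CPM in LL, against 79.0 and 22.2 CPM in LH (log2 change 0.61, SE 0.62). For both genes LH replicate 2 was the low library. CD40LG had 42.2 and 38.7 CPM in LL, against 95.7 and 23.0 CPM in LH (log2 change -0.56, SE 0.68). CD4 had 44.1 and 42.5 CPM in LL, against 79.2 and 30.0 CPM in LH (log2 change -0.34, SE 0.50). The LH libraries again lay on either side of LL for both. IL2RA had 22.9 and 7.36 CPM in LL, against 26.1 and 14.1 CPM in LH (log2 change -0.41, SE 0.64). The adjusted p was 1.00 for each of these 5 genes, and leaving out 1 library changed the sign of each of the 5.

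**Figure D2:**
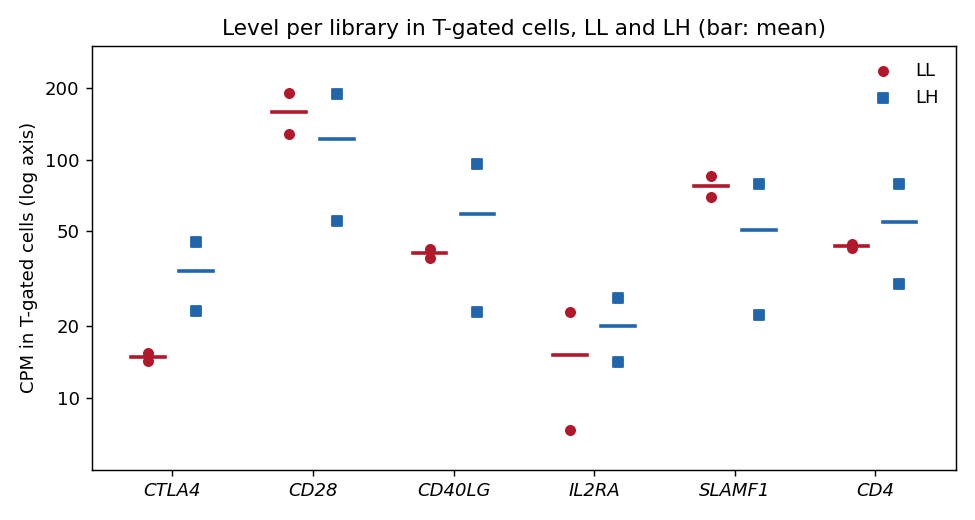
Level of each receptor gene in T-gated cells in CPM with TMM scaling, on a log axis, 1 point per library (LL red circles, LH blue squares; horizontal bars are means of 2 libraries). CTLA4 lies at 15.4 and 14.2 CPM in LL and at 45.2 and 23.2 CPM in LH.

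For CTLA4 the transcripts per positive cell, like the share of positive cells, lay lower in LL. CTLA4-positive T-gated cells carried on average 3.43 and 2.73 CTLA4 UMIs in LL, against 5.86 and 4.73 in LH. Cells with 1 CTLA4 UMI were 42.9% and 54.5% of the positive cells in LL, against 28.7% and 23.1% in LH. Relative to CD28, which shares its ligands, CTLA4 had 0.0812 and 0.112 UMIs per CD28 UMI in LL, against 0.240 and 0.418 in LH. In each of these 3 measures the stages did not overlap, which with 2 ewes per stage cannot go below an exact permutation p of 0.33. Median UMIs per CTLA4-positive cell were 2964 and 2275 in LL, against 3981 and 3411.5 in LH, and the part of depth in these differences was not tested.

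Of the 5838 T-gated cells, 3562 (61.0%) had no UMI of any of the 6 genes, 1124 had 1 gene, 1152 had at least 2 genes and 2 cells had all 6. The cells without any of them were 51.2% and 59.1% in LL, against 61.0% and 77.0% in LH. CTLA4 was seldom detected alone, in 8 of 156 positive cells (5.13%), and CD4 in 65 of 690 (9.42%). CD40LG was the only one of the 6 genes detected in 75 of 669 cells (11.2%) and IL2RA in 72 of 269 (26.8%). CD28 was alone in 474 of 1426 cells (33.2%) and SLAMF1 in 430 of 1026 (41.9%). CD28 with SLAMF1 and no other was the most frequent pair, in 184 cells. CD28 with CD4 alone was found in 119 cells, as was CD28 with CD40LG and CD4.

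Each of the 15 pairs of receptor genes was found together in the same T-gated cell more often than the product of their shares in that library gives, in 4 of 4 libraries. The ratio of observed to expected double-positive cells, summed over libraries, ranged from 1.79 for CD28 with SLAMF1 to 6.11 for CTLA4 with IL2RA. CTLA4 with CD4 had a ratio of 5.31 (101 cells, against 19.0 expected). By library this ratio was 4.85 and 3.38 in LL, against 4.82 and 11.3 in LH. CTLA4 with IL2RA had 4.81 and 3.87 in LL, against 5.68 and 9.71 in LH. LH replicate 2 was the highest library for both pairs.

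The pair of helper genes, CD40LG and CD4, had a ratio of 4.08 (343 cells, against 84.0 expected). By library it was 4.88 and 3.78 in LL, against 3.82 and 6.33 in LH. CD28 with CTLA4 had 2.68 and 3.45 in LL, against 3.70 and 7.89 in LH, and CD28 with CD4 had 2.03 and 2.76 in LL, against 3.08 and 6.10 in LH. These ratios cannot exceed 1 over the share of the partner gene, and CD28 had its lowest share, 12.7%, in LH replicate 2. The 5 pairs with SLAMF1 had ratios from 1.79 to 2.15, and CD28 with IL2RA, at 2.13, was the only other pair in that range. With each cell thinned to 1000 UMIs, all 15 summed ratios were above 1, between 1.29 and 8.75. Ratios of other gene pairs were not computed, and the parts of depth and of mixed cell types in the gate were not tested. After thinning, 11 of the 15 pairs were above 1 in every library, and each of the 4 exceptions held IL2RA, which then had 12 to 53 positive cells per library.

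**Figure D3:**
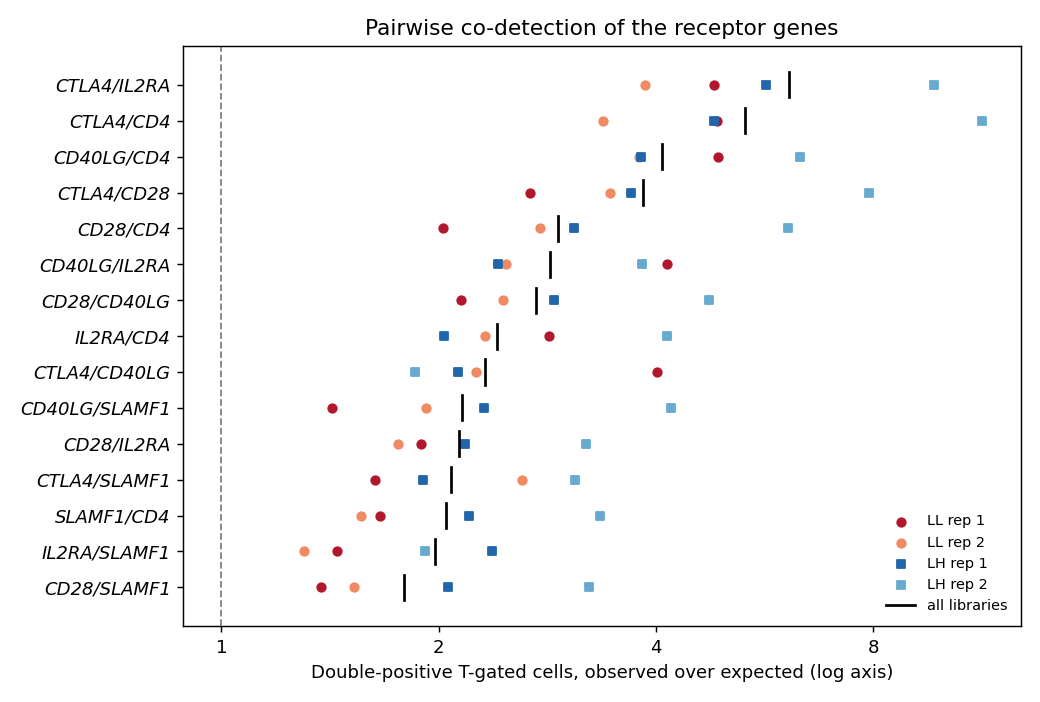
Observed over expected number of double-positive T-gated cells for the 15 pairs, on a log axis, 1 point per library (LL red circles, LH blue squares) and a black tick for all libraries; the dashed line at 1 marks independence. Every point lies above 1, and the ratios over all libraries run from 1.79 for CD28 with SLAMF1 to 6.11 for CTLA4 with IL2RA.

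CTLA4-positive cells were mostly CD28-positive. CD28 was detected in 90.5% and 81.8% of CTLA4-positive cells in LL, against 89.7% and 100% in LH (19 and 18 cells in LL, 78 and 26 cells in LH). In CTLA4-negative T-gated cells CD28 was detected in 32.8% and 22.4% in LL, against 22.1% and 10.0% in LH. Read the other way, CTLA4 was detected in 4.56% and 7.44% of CD28-positive cells in LL, against 11.9% and 23.2% in LH, and the stages did not overlap. CD4 was detected in 47.6% and 36.4% of CTLA4-positive cells in LL, against 70.1% and 84.6% in LH, again without overlap. The exact intervals, 25.7% to 70.2% in LL replicate 1 and 59.4% to 79.5% in LH replicate 1, did overlap. IL2RA was detected in 23.8% and 9.09% of CTLA4-positive cells in LL, against 29.9% and 46.2% in LH, also without overlap. With 2 ewes per stage such orders cannot go below an exact permutation p of 0.33. On summed counts, whether the change between positive and negative cells, or between T-gated and other cells, differed between the stages was tested 36 times over 7 contrasts. None passed (0 of 36, edgeR interaction, lowest adjusted p = 0.664), and 8 had p under 0.05 before adjustment.

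When counts were summed over the cells positive and over the cells negative for 1 receptor gene, the other 5 were each tested. Across the 6 fits, 29 of 30 such tests passed and all 30 were higher in the positive cells in 4 of 4 libraries (edgeR, library as a term, adjusted over all genes). The 30 tests come from 15 pairs read in both directions, so they are not independent. The share of all tested genes called higher in the positive cells was 1.28% in the CTLA4 fit, 7.32% in the CD28 fit, 1.88% in the CD40LG fit, 1.51% in the IL2RA fit, 4.64% in the SLAMF1 fit and 4.17% in the CD4 fit. The log2 changes ran from 1.10 for SLAMF1 in CTLA4-positive cells, which did not pass (SE 0.32, adjusted p = 0.063 by edgeR), to 6.86 for CTLA4 in CD28-positive cells. The latter value is a description, not a test, though it counts among the 29. CTLA4 passed the filter on low counts only through the CD28-positive sums, where it was high.

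CTLA4 had 56.1 and 61.1 CPM in CD28-positive cells in LL, and 175 and 249 CPM in those of LH. In CD28-negative cells it had 0.577 and 2.35 CPM in LL, and 1.64 and 0 CPM in LH. As a description, not a test, the positive cells of every library lay far above the negative cells of every library (log2 change 6.86, SE 0.51). CD4 had 266 and 272 CPM in CTLA4-positive cells in LL, and 331 and 642 CPM in those of LH. In CTLA4-negative cells it had 39.7 and 39.7 CPM in LL, and 69.2 and 15.1 CPM in LH (log2 change 3.25, SE 0.38). The lowest CTLA4-positive value lay above the highest CTLA4-negative value.

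CD28, IL2RA and CD40LG also passed in the CTLA4 fit. CD28 averaged 640.0 ± 115 CPM in CTLA4-positive and 129 ± 65.0 CPM in CTLA4-negative cells (SD, n = 4 libraries each; log2 change 2.47, SE 0.31). IL2RA averaged 118 ± 74.3 CPM in CTLA4-positive and 14.8 ± 7.39 CPM in CTLA4-negative cells (log2 change 3.00, SE 0.42). CD40LG averaged 115 ± 47.7 CPM in CTLA4-positive and 49.3 ± 31.8 CPM in CTLA4-negative cells (log2 change 1.22, SE 0.34, adjusted p = 0.045 by edgeR). The CD40LG call was lost without LL replicate 1, LL replicate 2 or LH replicate 2 (adjusted p = 0.093, 0.143 and 0.084 by edgeR) and with doublet calls kept (adjusted p = 0.132).

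CD4 and CD28 both passed in the CD40LG fit. CD4 averaged 304 ± 81.1 CPM in CD40LG-positive and 26.1 ± 7.95 CPM in CD40LG-negative cells (log2 change 3.52, SE 0.28). CD28 averaged 551 ± 81.8 CPM in CD40LG-positive and 101 ± 49.7 CPM in CD40LG-negative cells (log2 change 2.58, SE 0.32). Without LL replicate 2 the adjusted p of CD28 was 0.060, and 16 of the 30 tests over all fits passed. With each cell thinned to 1000 UMIs, 15 of 20 tests passed in the 4 fits that could then be made. The 5 that did not were CTLA4 and IL2RA in CD40LG-positive cells, CTLA4 and IL2RA in SLAMF1-positive cells and IL2RA in CD4-positive cells. Median UMIs of IL2RA-positive cells were 3470 and 3074.5 in LL, and 4506 and 3567.5 in LH, against 2779.5 and 2465 (LL) and 3338.5 and 2899 (LH) in IL2RA-negative cells.

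**Figure D4:**
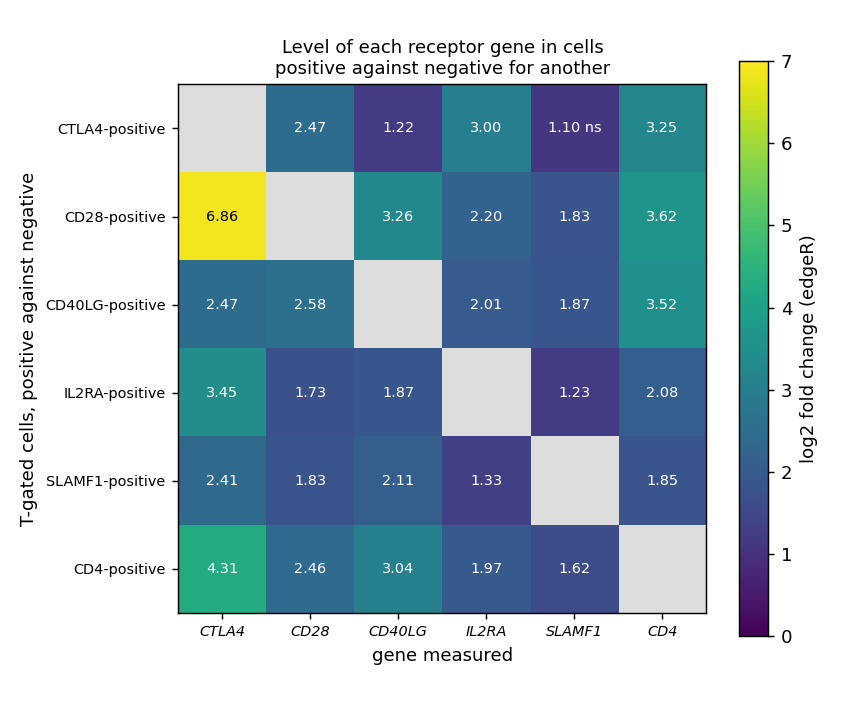
Log2 change of each receptor gene (columns) between T-gated cells positive and negative for another (rows), from edgeR with the library as a term; grey squares are the gene that defines the row, and ns marks an adjusted p of at least 0.05. Every value is above 0, from 1.10 for SLAMF1 in CTLA4-positive cells to 6.86 for CTLA4 in CD28-positive cells, which is a description, not a test.

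The genes with a symbol that were most like each receptor gene were ranked by the log2 change between its positive and negative cells over 4 libraries. For CTLA4 these were FOXP3, CD4, IL12RB2, IL2RA and CD28. The place of FOXP3 is a description, not a test: it had 27 UMIs in all T-gated cells, passed the filter on low counts only through the CTLA4-positive sums, where it was high, and was detected in 1 CTLA4-positive cell of LL replicate 2. IL12RB2, a chain of the interleukin-12 receptor, averaged 454 ± 235 CPM in CTLA4-positive and 56.9 ± 37.1 CPM in CTLA4-negative cells (log2 change 3.05, SE 0.30). For IL2RA the leading genes were CTLA4, IL12RB2, CD4, PPARG and CD40LG.

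IL4, the cytokine of type 2 helper cells, appeared among the leading 5 genes of CD28, CD40LG, SLAMF1 and CD4. In CD40LG-positive cells IL4 averaged 58.6 ± 48.4 CPM, against 2.46 ± 0.66 CPM in CD40LG-negative cells (log2 change 4.44, SE 0.45). This too is a description, not a test, since IL4 passed the filter on low counts only through the CD40LG-positive sums, where it was high. IL4 was also low in CD28-negative (3.41 ± 1.96 CPM), SLAMF1-negative (5.32 ± 5.37 CPM) and CD4-negative cells (3.86 ± 2.15 CPM). Its place in those fits is therefore given as a description as well. For CD28 the leading genes were CTLA4, CD4, CD40LG, IL4 and IL2RA, and for CD40LG they were IL4, CD4, CD28, CTLA4 and PPARG. For SLAMF1 they were CTLA4, IL4, CD40LG, CD4 and CD28, and for CD4 they were CTLA4, IL4, CD40LG, CD28 and IL2RA.

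XCL1, a chemokine of cytotoxic and natural killer cells, was the counterpart, and it was chosen for mention after its values were seen. XCL1 averaged 116 ± 195 CPM in CTLA4-positive and 1464 ± 416 CPM in CTLA4-negative cells (log2 change -4.21, SE 0.47). It was also lower in CD4-positive (log2 change -2.17), CD28-positive (-1.14) and CD40LG-positive cells (-1.08). In SLAMF1-positive cells XCL1 was higher, at 1767 ± 364 CPM, against 1333 ± 382 CPM in SLAMF1-negative cells (log2 change 0.43, SE 0.091, adjusted p = 0.025 by edgeR). The share of cells with XCL1 ran the other way in 3 of 4 libraries, at 50% and 40.3% of SLAMF1-positive cells in LL and 58.2% and 37.5% in LH, against 45.4% and 56.1% (LL) and 71.4% and 61.4% (LH) of SLAMF1-negative cells. XCL1 was also detected in 10.9% to 39.9% of luminal cells, and the part of free RNA in these shares was not tested. Without LL replicate 2, or without the library as a term, SLAMF1 itself was the 1 gene called in the SLAMF1 fit, so the calls of XCL1 and IFNG in it were lost. IFNG, the interferon of type 1 and cytotoxic cells, likewise chosen after its values were seen, was higher in SLAMF1-positive (log2 change 1.33), CD40LG-positive (1.30) and CD28-positive cells (1.26). It was lower in CTLA4-positive cells (log2 change -1.26, SE 0.29, adjusted p = 0.014 by edgeR).

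FOXP3 itself was detected in 24 T-gated cells, 5 and 2 in LL and 9 and 8 in LH. Of these 24 cells, 21 were CD28-positive, 17 CTLA4-positive, 14 CD4-positive, 14 SLAMF1-positive, 13 IL2RA-positive and 6 CD40LG-positive. FOXP3 was detected in 19.0% and 4.55% of CTLA4-positive cells in LL and in 6.90% and 23.1% in LH, against 0.0825% and 0.100% (LL) and 0.115% and 0.233% (LH) of CTLA4-negative cells. The share of T-gated cells with CD4 or CD40LG was 14.8% and 16.7% in LL, against 21.0% and 10.7% in LH. The share with CTLA4 or IL2RA was 6.24% and 4.31% in LL, against 7.52% and 6.33% in LH.

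Each of the 6 genes was higher in T-gated than in all other cells in 4 of 4 libraries. The log2 changes lay between 2.77 for CTLA4 and 3.08 for SLAMF1, with adjusted p from 0.00064 to 0.0027 (edgeR, library as a term), where 45.7% of the 13195 tested genes were called and 22.9% were called higher. CTLA4 had 16.5 and 15.6 CPM in T-gated cells in LL and 49.4 and 23.9 CPM in LH, against 1.65 and 0.759 CPM (LL) and 13.7 and 5.28 CPM (LH) in other cells. CD28 had 204 and 139 CPM in T-gated cells in LL and 206 and 57.1 CPM in LH, against 18.4 and 12.1 CPM (LL) and 64.3 and 5.69 CPM (LH) in other cells. LH replicate 1 had the highest level outside the gate for both genes. Cells outside the T gate that passed no other gate held 26.8% to 59.8% of the UMIs of CTLA4 and 31.6% to 51.3% of those of CD28. Whether these cells were T cells whose CD3E and CD247 were not captured was not tested.

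Among cells that passed 1 marker gate outside the T gate, the receptors were near 0 in luminal, fibroblast and EDNRA/IGFBP7 cells. CTLA4 had no UMI in 3217 fibroblasts, gated by DCN, or in 3605 EDNRA/IGFBP7 cells. In luminal cells CTLA4 had 0.605 and 0.0485 CPM in LL, and 0.641 and 0.603 CPM in LH. CD28 ranged from 0.510 to 5.45 CPM in luminal cells, and CD4 from 0.186 to 8.66 CPM, with LH replicate 1 the highest library for both. No B cell, plasma cell or dendritic cell gate could be formed, since their listed markers had no symbol.

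**Figure D5:**
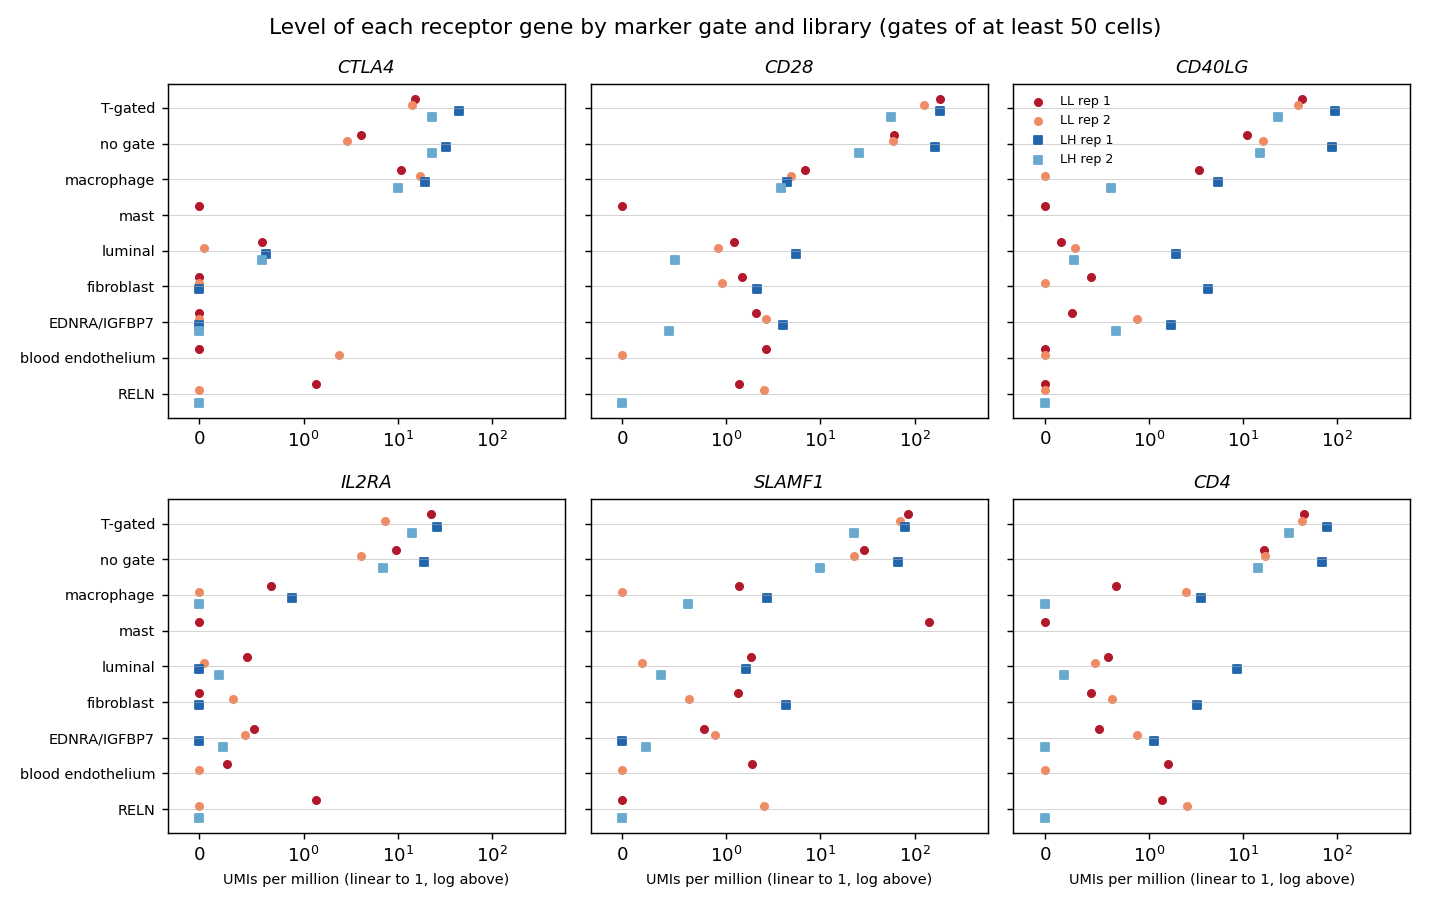
Level of each receptor gene in CPM without TMM scaling by marker gate and library, on an axis that is linear to 1 and logarithmic above; LL circles, LH squares, gates of at least 50 cells. CTLA4 in macrophage-gated cells, at 10.9 and 17.1 (LL) and 19.6 and 10.1 CPM (LH), stands beside 15.3 and 14.1 (LL) and 44.8 and 23.4 CPM (LH) in T-gated cells, and SLAMF1 has 141 CPM in the mast cells of LL replicate 1.

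CTLA4 was also found in macrophage-gated cells, gated by C1QA and MRC1. CTLA4 had 10.9 and 17.1 CPM in macrophage-gated cells in LL, and 19.6 and 10.1 CPM in LH, and was detected in 3.89% and 4.88% of these cells in LL, and in 8.60% and 3.66% in LH. In T-gated cells the levels on this scale were 15.3 and 14.1 CPM in LL, and 44.8 and 23.4 CPM in LH. In macrophage-gated against luminal cells 47.6% of genes were called. As a description, not a test, CTLA4 lay higher in the macrophage-gated cells in 4 of 4 libraries (log2 change 4.86, SE 0.56). CTLA4 passed the filter on low counts only through the macrophage-gated sums, where it was high. Against T-gated cells the log2 change was -0.73 (SE 0.28, adjusted p = 0.073 by edgeR; 37.5% of genes called). CD28 was likewise higher in macrophage-gated cells, at 6.83 and 4.89 CPM in LL and 4.45 and 3.80 CPM in LH, than in luminal cells, at 1.21 and 0.922 CPM in LL and 5.45 and 0.510 CPM in LH (log2 change 1.75, SE 0.60, adjusted p = 0.039 by edgeR). In LH replicate 1 the luminal level of CD28 was the higher one. CD28 was lower in macrophage-gated than in T-gated cells in 4 of 4 libraries (log2 change -4.66, SE 0.27). As a description, not a test, the other 4 receptor genes also lay lower in 4 of 4 libraries, by 4.17 to 5.44 on the log2 scale. These 4 genes passed the filter on low counts through the T-gated sums, where they were high.

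Of the 50 CTLA4-positive macrophage-gated cells, 41 had 1 CTLA4 UMI, and CD28, CD4 and IL2RA were each detected in 1 of them. In the 116 CTLA4-positive cells that passed no gate, CD28 was detected in 88 (75.9%), CD4 in 62 and IL2RA in 28. CTLA4 UMIs per CD28 UMI were 1.60 and 3.50 in macrophage-gated cells in LL and 4.40 and 2.67 in LH, against 0.0812 and 0.112 (LL) and 0.240 and 0.418 (LH) in T-gated cells. These ratios did not overlap between the gates. The ratios of macrophage-gated cells rest on 10 and 2 CD28 UMIs in LL and 5 and 6 in LH. Whether CTLA4 UMIs in macrophage-gated cells came from these cells was not tested further, and both macrophage fits were added after the levels by gate had been seen.

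CD86 and CD80, the ligands shared by CD28 and CTLA4, were both higher in macrophage-gated than in T-gated cells (edgeR, adjusted p under 0.05). CD86 averaged 922 ± 69.1 CPM in macrophage-gated and 18.2 ± 5.97 CPM in T-gated cells (SD, n = 4 libraries each; log2 change 5.70, SE 0.27). CD80 averaged 27.0 ± 7.38 CPM in macrophage-gated and 10.8 ± 3.77 CPM in T-gated cells (log2 change 1.36, SE 0.23). SLAMF1 was also found in mast-gated cells, gated by TPSB2. It had 141 CPM in the 61 mast-gated cells of LL replicate 1, where it was detected in 11 cells (18.0%), and 409 CPM in the 6 of LL replicate 2, where it was detected in 2. The other 5 receptor genes had no UMI in mast-gated cells, and LH held 0 and 2 such cells, so no test across libraries was made.

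Related genes were counted from lists of the pathway. Between LL and LH, 0 genes of any list passed (edgeR, over all genes; DESeq2 calls were not counted by list), and 0 of their 14 tested genes had an unadjusted p under 0.05. Only 4 of 18 genes of antigen receptor signalling, 4 of 14 ligands, 9 of 23 regulatory and helper genes, 2 of 16 cytotoxic genes, 1 of 11 genes of interleukin-2 signalling and 1 of 8 naive and memory genes had a symbol, and 0 of 19 other costimulatory receptors did. In T-gated against other cells, 45.7% of 13195 tested genes were called and 22.9% were called higher. Both signalling genes in that fit rose, CD3D and LCK. The CD3D value is a description, not a test. CD3D passed the filter on low counts through the T-gated sums, where it was high. Of 3 ligands tested CD80 rose (log2 change 1.95), IL15 fell (-1.04) and CD86 did not pass (-0.68, adjusted p = 0.133 by edgeR). All 3 regulatory and helper genes in the fit rose, TGFB1 (log2 change 1.91), IL4 (2.98) and IFNG (2.94). The IL4 value is a description, not a test. IL4 passed the filter on low counts through the T-gated sums, where it was high. Both cytotoxic genes tested rose, NCR1 (log2 change 1.97) and XCL1 (3.04), as did CXCR4 (2.76), a chemokine receptor. STAT5A, which acts below the interleukin-2 receptor, had a log2 change of 0.01 and did not pass.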

How the data were processed

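The authors deposited whole-number UMI counts for every gene and barcode, which were used unchanged. They were made with Cell Ranger, version 5.0.1 per the submitters' processing notes, which also name STAR and Seurat 3.2.0, and version 7.2.0 per the file headers. The genome build was not given in the sources used here, and no coordinates were used. Groups and replicate numbers came from the library titles. The receptor genes, gene lists and marker gates were chosen with earlier results of these data known.

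Barcodes over 20% mitochondrial UMIs (13 genes) were left out (94, 145, 102 and 19 barcodes of LL replicates 1 and 2 and LH replicates 1 and 2). Doublets were taken as the highest Scrublet-type scores at 0.8% per 1000 cells (1301, 992, 296 and 724 cells; scanpy 1.11.5), since the automatic limit called 0 cells in LH replicate 1. Gates needed 1 UMI of CD3E or CD247 for T cells, 5 of DCN for fibroblasts and 2 for other marker sums, save luminal and EDNRA/IGFBP7 cells (1 UMI of EPCAM or CLDN4 with 1 of PAEP; 1 of EDNRA with 2 of IGFBP7). Cells outside the T gate that passed several gates entered none.

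Counts were summed per library and cell set and tested with edgeR 4.0.16 (R 4.3.3; quasi-likelihood, TMM, filterByExpr with a minimum count of 10, Benjamini-Hochberg adjusted p under 0.05), with the library as a term within ewes; DESeq2 1.42.0 was an alternative. The scripts were tested on simulated data. CPM levels by gate used unscaled totals. Shares had exact Clopper-Pearson 95% intervals and exact permutation tests over 6 arrangements. Expected double-positive cells were the product of both shares and the cell number per library. Genes most like a receptor gene were up to 5 with a symbol, called, at least 20 CPM in positive cells, higher in each library, by largest log2 change. Of the listed genes all with a symbol were counted, and those called were named. Named genes held 11.0% to 13.1% of UMIs. Alternatives were other normalizations, filters, gates, doublet and mitochondrial limits, thinning to 1000 UMIs, equal cell numbers and leaving out each library.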

Additional observations from a re-analysis of the deposited data

How the results depend on the processing

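No sign of a receptor gene turned in T-gated against other cells, in positive against negative cells or in the co-expression ratios (165 alternative ratios, all above 1) under the alternatives run. Between LL and LH, edgeR called 1 gene with no filter and 1 with cells passing another gate left out, and DESeq2 called 22. The share of CTLA4 differed by 0.917 percentage points (LL minus LH) and that of CD4 by 4.11 in cells with both CD3E and CD247; after thinning CD40LG differed by 0.0694 and CD4 by 0.198, all opposite in sign to the reported values, and the cause was not tested.

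Leaving out 1 library gave 0 to 2 calls between LL and LH, 3929 to 5652 in T-gated against other cells, and in positive against negative cells 248 to 427 (CTLA4), 845 to 1558 (CD28), 42 to 258 (CD40LG), 69 to 1198 (IL2RA), 1 to 1268 (SLAMF1) and 563 to 940 (CD4); the lowest for CD40LG, IL2RA and SLAMF1 came without LL replicate 2. Share differences then ranged from -4.80 to 3.57 for CD40LG and from -4.26 to 2.83 for CD4, positive without LH replicate 1. Log2 changes between LL and LH ranged from -0.25 to 1.52 (CD28) and -0.027 to 1.81 (SLAMF1), negative without LH replicate 2; from -1.24 to 0.82 (CD40LG) and -0.87 to 0.54 (CD4), positive without LH replicate 1; and from -1.45 to 0.16 (IL2RA), positive without LH replicate 1 or LL replicate 2.

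Replicate numbers are shared by title alone. The difference of replicates 1 and 2 correlated between the stages at r = 0.254 over 11370 genes, and the replicate block gave 0 calls between LL and LH. Without the library as a block, edgeR called 1687 genes in T-gated against other cells, and 50 (CTLA4), 91 (CD28), 98 (CD40LG), 113 (IL2RA), 1 (SLAMF1) and 35 (CD4) in positive against negative cells, with 14 of the 30 receptor tests passing; IL2RA alone of the 6 receptor genes then passed in T-gated against other cells.

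Calls in positive against negative cells also moved with no filter on low counts (538 for CTLA4, 777 for CD40LG, 712 for IL2RA and 1410 for CD4), with DESeq2 (620 for CD40LG), with doublet calls kept (197 for CTLA4) and with thinning (699 for CD28, 212 for SLAMF1 and 378 for CD4). Leaving out cells that passed another gate, an alternative chosen after seeing the data, gave 719 (CTLA4), 1003 (CD40LG), 564 (IL2RA) and 737 (SLAMF1), and all 30 receptor tests passed. Against T-gated cells the adjusted p of CTLA4 in macrophage-gated cells reached 0.296 without 1 library. The rarest genes rest on few cells: IL2RA had 24 and CTLA4 21 positive cells in their smallest library.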
